A study of Mus musculus with 23 samples.

Results

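A set of 9 mouse genes that receive or relay interferon signals or detect foreign nucleic acid was followed through 23 RNA sequencing libraries in 8 groups. They were picked by symbol from the row names of the deposited count tables, which makes 9 of 39017 genes. Ifnar1 is a subunit of the type I interferon receptor. Stat2, Irf9, Irf1 and Irf7 are transcription factors. Ddx58 (RIG-I), Ifih1 (MDA5) and Dhx58 (LGP2) are RNA helicases that sense viral or self double-stranded RNA, and Tmem173 (STING) relays the cyclic GMP-AMP signal made when DNA is sensed in the cytosol.

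In textbook outline, RNA bound by RIG-I or MDA5 signals through the adaptor MAVS, and DNA sensed by cGAS signals through STING, and both routes switch on interferon genes through IRF3 and IRF7. Secreted type I interferon binds its receptor, whose kinases JAK1 and TYK2 phosphorylate STAT2. It joins IRF9 in a complex that binds interferon-stimulated response elements and induces antiviral genes, among them Stat2, Irf7, Irf9 and the RNA sensors themselves.

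All cells came from C57BL/6 mouse brain. Plasmids were delivered into embryonic cortical progenitors by in utero electroporation with piggyBac transposons, and GFP-positive cells were sorted and expanded 72 h later (preneoplastic) or after 5 to 9 months (tumour). The extraction text also names mouse tumours. The preneoplastic groups were EV ctl (wild type, empty vector, 2 libraries), EV-PDGFRA (Pdgfra overexpression, 3), WT-AP (wild-type H3.3 overexpression, Trp53-/-, Atrx shRNA, 4), K27M-AP (H3.3K27M overexpression, Trp53-/-, Atrx shRNA, 4) and K27M-APP (as K27M-AP with Pdgfra overexpression, 2). The tumour groups were K27M-AP T (3 libraries) and K27M-APP T (4), with the genotypes of K27M-AP and K27M-APP, and K27M-P T (H3.3K27M overexpression and Trp53-/- without the Atrx shRNA, 1). Trp53 was targeted with CRISPR/Cas9 in the electroporated cells, and no promoter that drives a transgene is given in the sources used here. Whether replicate libraries stem from separate animals is not stated in the labels, so p-values measure only the spread between these libraries, which may be technical.

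Total counts per library ran from 41929255 to 58390900 in the 15 preneoplastic libraries and from 37300947 to 68642582 in the 8 tumour libraries. Levels are given as CPM, each count relative to its library's total after TMM scaling. In the library K27M-AP T 4, Trp53 stood at 49.5 CPM against 43.6 and 51.6 CPM in EV ctl, whereas the 2 other K27M-AP T libraries held 11.2 and 9.90 CPM. Cdkn1a, a main target of p53, stood at 18.3 CPM in this library, 8.68 and 4.72 CPM in the 2 others, 1.83 to 3.95 CPM in K27M-AP and 144 and 209 CPM in EV ctl. An edited gene can still give mRNA, so the Trp53 level alone does not show whether the edit is present. Calls and fold changes of the comparisons with K27M-AP T are given with and without this library. Of 8 neural progenitor markers, the summed level was 3650 to 8929 CPM in preneoplastic and 5230 to 12210 CPM in tumour libraries. The maximum was K27M-AP T 4, where Vim alone held 9986 CPM. Of 4 oligodendrocyte precursor markers, the summed level was 1258 to 2150 CPM in preneoplastic and 912.6 to 1832 CPM in tumour libraries, lowest in K27M-AP T 4. Of 15 microglia and macrophage markers, the summed level was 8.05 to 18.7 CPM and 8.85 to 12.9 CPM, most of it from Csf1r (6.22 to 11.5 and 6.54 to 9.57 CPM). Tyrobp and C1qa were at 0 in all libraries, and Trem2, C1qb and Aif1 did not exceed 0.123 CPM, whereas Laptm5 reached at most 0.0827 CPM in preneoplastic and 1.71 CPM in tumour libraries. P2ry12 was at 0.149 to 2.17 CPM in preneoplastic and 0.184 to 1.92 CPM in tumour libraries, and Cd68 at 0.747 to 6.69 and 0.712 to 1.46 CPM. Of 10 lymphocyte markers, the summed level did not exceed 0.424 CPM, with Ms4a1 and Gzma at 0. Of 6 fibroblast markers, the summed level was 0.682 to 81.2 CPM in preneoplastic and 4.25 to 24.7 CPM in tumour libraries, with medians of 3.37 and 9.06 CPM. The preneoplastic maximum was K27M-AP 4, with 80.1 CPM of Pdgfrb, and the next highest stood at 9.90 CPM. Col3a1, a fibroblast collagen, was at 0.0745 to 1.064 CPM in preneoplastic and 1.04 to 19.7 CPM in tumour libraries, with the maximum in K27M-AP T 4. Other fibroblast markers differed: in K27M-AP T 4 Col1a1 stood at 4.26 CPM, but Col1a2 at 0.094 CPM, the lowest of the tumour libraries, and Dcn at 0.047 CPM. Dcn reached at most 0.607 CPM in preneoplastic and 0.210 CPM in tumour libraries. Of 10 endothelial and pericyte markers, the summed level was 0.613 to 2.54 and 2.06 to 50.5 CPM, and the library K27M-APP T 3 held 45.7 CPM of Kcnj8. K27M-AP T 1 and 2 summed to 6.09 and 4.64 CPM, with Tie1 at 3.22 and 1.99 CPM against at most 0.197 CPM in preneoplastic libraries. Of 8 tested, 6 had log2 fold changes above 0 in K27M-AP T against K27M-AP (median 1.20). In K27M-APP T against K27M-APP it was also 6 (median 1.60). EdgeR called 0 in both, and DESeq2 called 2 higher in the first, beside 2.13% of all genes. The part of these cell type markers in the results was not tested. In bulk RNA, fewer cells of a type and less RNA per cell cannot be told apart.

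The upstream sequences of Stat2, Ddx58 and Irf1 are shown because, of the 7 members with a RefSeq entry, these were the ones whose window held a motif searched. Windows searched are the 250 bases before the RefSeq start on GRCm38.p6, and positions count back from that start. Annotated exons were left out of the printed sequences only, not of the search. The letters searched on both strands were GAAA followed after any 2 bases by GAAA for the interferon-stimulated response element (ISRE), AANNGAAA for an IRF site and TTCNNNGAA for a STAT site (GAS). Each ISRE match also holds an IRF match. Capitals mark the matched letters. The printed stretches are Stat2 chr10:128270248-128270497 on the plus strand, Ddx58 chr4:40239829-40240075 on the minus strand and Irf1 chr11:53769764-53770013 on the plus strand.
Stat2: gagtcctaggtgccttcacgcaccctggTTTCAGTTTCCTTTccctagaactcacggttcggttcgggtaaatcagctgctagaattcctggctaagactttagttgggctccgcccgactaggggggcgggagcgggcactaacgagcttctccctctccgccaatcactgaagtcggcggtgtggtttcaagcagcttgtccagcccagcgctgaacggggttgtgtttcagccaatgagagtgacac
Ddx58: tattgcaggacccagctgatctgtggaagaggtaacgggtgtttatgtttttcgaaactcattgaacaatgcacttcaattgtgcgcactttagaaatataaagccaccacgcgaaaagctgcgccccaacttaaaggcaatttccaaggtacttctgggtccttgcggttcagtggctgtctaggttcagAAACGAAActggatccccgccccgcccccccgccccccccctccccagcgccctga
Irf1: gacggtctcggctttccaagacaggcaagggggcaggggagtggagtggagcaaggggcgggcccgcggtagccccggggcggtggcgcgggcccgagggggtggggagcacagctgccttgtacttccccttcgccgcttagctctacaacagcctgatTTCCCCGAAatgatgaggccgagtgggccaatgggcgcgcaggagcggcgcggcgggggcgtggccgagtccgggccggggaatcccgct
In Stat2 the ISRE letters lay on the opposite strand at -222 to -213, and an IRF match at -216 to -209 overlapped them. In Ddx58 the IRF letters lay at -59 to -52, and in Irf1 the GAS letters lay at -90 to -82. Over 32851 windows of all genes, 2.98% held the ISRE letters, 21.3% the IRF letters and 7.02% the GAS letters. A match describes the letters and shows no binding.

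Of the 9 members, 7 (Stat2, Irf9, Irf1, Irf7, Ddx58, Ifih1 and Dhx58) stood higher in most tumour libraries than in the preneoplastic libraries, whereas Ifnar1 and Tmem173 did not. Over the 7 K27M-AP T and K27M-APP T libraries, the median was 9.22-fold the preneoplastic median for Ifih1, 5.18-fold for Irf7, 4.57-fold for Dhx58, 3.51-fold for Irf9 and 3.22-fold for Ddx58. It was 1.87-fold for Stat2, 1.63-fold for Irf1, 1.13-fold for Tmem173 and 0.936-fold for Ifnar1. The preneoplastic median is over all 15 libraries, with EV ctl, EV-PDGFRA and WT-AP included, so these ratios mix genotype with stage. Against its own genotype in edgeR's fit, Ifih1 was 6.80-fold higher in K27M-AP T and 3.86-fold higher in K27M-APP T. All 7 tumour libraries exceeded all 15 preneoplastic libraries for Ifih1 and Dhx58, 6 did for Stat2, Irf9, Irf7 and Ddx58, and 4 did for Irf1. The share of all genes that stood apart in this way was not counted, so how common it is cannot be told. Over the 6 tumour libraries other than K27M-AP T 4, the median was 8.06-fold the preneoplastic median for Ifih1, 4.46-fold for Irf7, 4.00-fold for Dhx58, 3.34-fold for Irf9, 3.12-fold for Ddx58, 1.86-fold for Stat2 and 1.54-fold for Irf1. None of the 9 members passed edgeR's quasi-likelihood test with Benjamini-Hochberg adjustment over all genes in any comparison, at an adjusted p of 0.05.

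**Figure D1:**
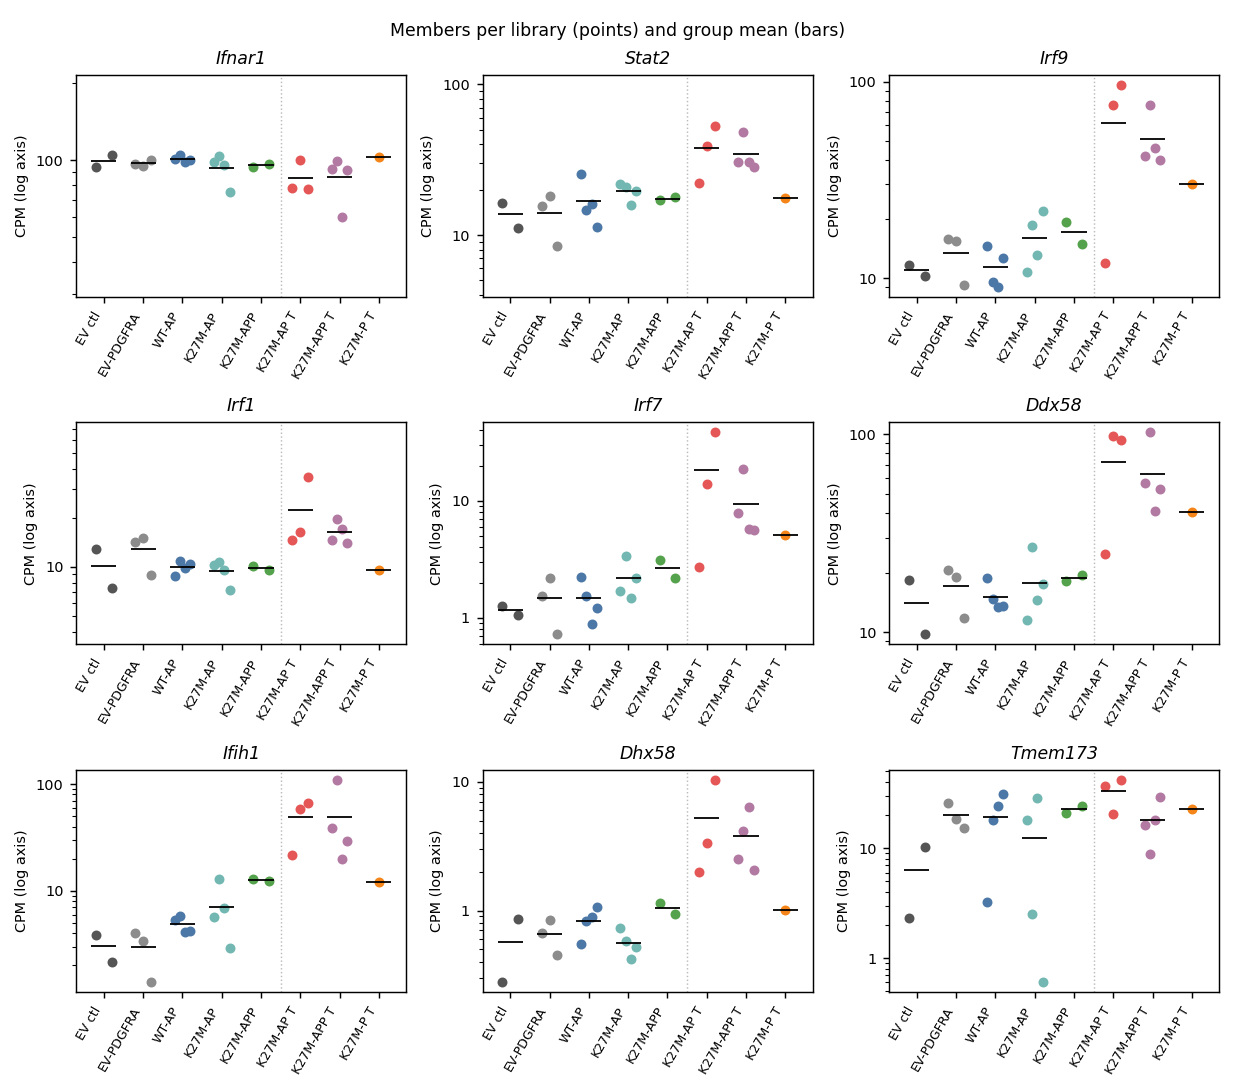
Level of each of the 9 members in every library (points, CPM, log axis) by group, with the group mean as a bar. The dotted line separates preneoplastic from tumour groups. Ifih1 and Dhx58 of the 7 K27M-AP T and K27M-APP T libraries all sit above the 15 preneoplastic libraries, while Ifnar1 lies between 60.1 and 105 CPM in all 23. The share of all genes with such a separation was not counted.

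The receptor subunit Ifnar1 (ENSMUSG00000022967, chr16:91485238-91507441, plus strand, GRCm38) had the highest level of the members per kilobase of exon, at 14.3 to 17.3 CPM per kb over the group means. Its CPM ranged from 75.2 through a median of 98.0 to 105 in preneoplastic libraries, from 77.5 to 99.9 in K27M-AP T, and over the 4 K27M-APP T libraries from 60.1 to 98.8, and it was 103 in K27M-P T. The libraries of all neighbouring groups in the order of means overlapped. The log2 fold change was -0.15 (SE 0.20) in K27M-AP T against K27M-AP and -0.17 (SE 0.22) in K27M-APP T against K27M-APP, with edgeR's adjusted p at 0.794 and 1.

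Stat2 (ENSMUSG00000040033, chr10:128270559-128292849, plus strand), the STAT of the type I response and the gene with the ISRE letters above, stood at 21.8, 20.9, 15.7 and 19.5 CPM in K27M-AP 1 to 4. It stood at 22.0, 39.2 and 53.0 CPM in K27M-AP T 1, 2 and 4. The groups did not overlap, although K27M-AP T 1 lay just above K27M-AP 1. In K27M-APP the values were 17.0 and 17.8 CPM, and in K27M-APP T 1 to 4 they were 30.5, 48.2, 30.7 and 28.1 CPM. Here too the groups stood apart, and the second tumour library was far above the other 3. Stat2 reached 25.5 CPM in WT-AP 1, above K27M-AP T 1.

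Irf9 (ENSMUSG00000002325, chr14:55603571-55610030, plus strand), the DNA-binding partner of STAT2, stood at 10.7, 18.6, 13.2 and 21.9 CPM in K27M-AP 1 to 4. It stood at 12, 75.6 and 96.4 CPM in K27M-AP T 1, 2 and 4. The first tumour library thus lay inside the preneoplastic range and the other 2 well above it. In K27M-APP Irf9 was at 19.4 and 14.96 CPM, and in K27M-APP T 1 to 4 at 41.7, 76.3, 46.2 and 39.96 CPM. These groups did not overlap. Per kilobase of exon, Irf9 was among the members with the highest tumour levels, at 11.4 CPM per kb for K27M-AP T and 9.47 for K27M-APP T. Irf9 overlaps Rnf31 on the same strand.

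Irf1 (ENSMUSG00000018899, chr11:53770014-53778374, plus strand), a factor best known as a target of type II interferon and the gene with the GAS letters above, varied within a smaller range. It stood at 10.2, 10.7, 9.54 and 7.26 CPM in K27M-AP 1 to 4 and at 14.7, 16.4 and 35.5 CPM in K27M-AP T 1, 2 and 4. The tumour libraries were all higher, and the library K27M-AP T 4 stood apart from the other 2. In K27M-APP Irf1 was at 10.1 and 9.51 CPM, and in K27M-APP T 1 to 4 at 14.7, 19.7, 17.1 and 14.1 CPM. EV-PDGFRA 1 and 2, which carry no H3.3 transgene, held 14.3 and 15.1 CPM and overlapped the tumour range.

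Irf7 (ENSMUSG00000025498, chr7:141262706-141266481, minus strand), the factor that amplifies type I interferon production, was low in preneoplastic cells, at 0.723 to 3.40 CPM with a median of 1.53. It stood at 1.68, 3.40, 1.47 and 2.19 CPM in K27M-AP 1 to 4 and at 2.74, 13.8 and 38.6 CPM in K27M-AP T 1, 2 and 4. The highest and the lowest of the 3 tumour libraries differed by a larger factor than for any other member, and the lowest of them overlapped K27M-AP. In K27M-APP the values were 3.09 and 2.19 CPM, and in K27M-APP T 1 to 4 they were 7.93, 18.6, 5.73 and 5.66 CPM. All 4 were above both K27M-APP libraries. Irf7 overlaps Phrf1 on the opposite strand, and Irf1 overlaps Gm17334 in the same way. Because the strand setting of the counting is not given in the sources used here, reads of such partners cannot be told apart.

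Among the RNA sensors, Ddx58 (ENSMUSG00000040296, chr4:40203773-40239828, minus strand), the gene with the IRF letters above, stood at 11.5, 26.98, 14.6 and 17.6 CPM in K27M-AP 1 to 4. It stood at 24.9, 98.4 and 93.0 CPM in K27M-AP T 1, 2 and 4. The first tumour library lay below K27M-AP 2, and the other 2 stood far above all 4. In K27M-APP Ddx58 was at 18.2 and 19.5 CPM, and in K27M-APP T 1 to 4 at 56.5, 102, 41.1 and 53.2 CPM. No K27M-APP T library overlapped K27M-APP.

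Ifih1 (ENSMUSG00000026896, chr2:62595798-62646255, minus strand), the sensor of long double-stranded RNA, was also uneven among preneoplastic groups. It stood at 3.89 and 2.13 CPM in EV ctl, at 4.05, 3.41 and 1.41 CPM in EV-PDGFRA 1 to 3 and at 4.09 to 5.86 CPM in WT-AP. In K27M-AP 1 to 4 it stood at 5.65, 13.0, 6.84 and 2.90 CPM, and in K27M-APP at 12.9 and 12.4 CPM. Both K27M-APP libraries thus lay above every library of EV ctl, EV-PDGFRA and WT-AP, while K27M-AP overlapped all of these groups. In K27M-AP T 1, 2 and 4 Ifih1 reached 21.7, 58.5 and 66.8 CPM, and in K27M-APP T 1 to 4 it reached 38.7, 109.7, 19.98 and 28.97 CPM. Every one of these 7 exceeded every preneoplastic library.

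Dhx58 (ENSMUSG00000017830, chr11:100694884-100704271, minus strand), a helicase that modulates the other 2 sensors and lacks their signalling domain, was the least abundant member per kilobase of exon in all groups. It stood at 0.732, 0.578, 0.424 and 0.520 CPM in K27M-AP 1 to 4, from 22 to 40 counts a library, and at 2.01, 3.35 and 10.4 CPM in K27M-AP T 1, 2 and 4, from 93 to 441 counts. The groups did not overlap. In K27M-APP it was at 1.15 and 0.947 CPM, and in K27M-APP T 1 to 4 at 2.51, 4.18, 6.36 and 2.06 CPM. All tumour libraries were again higher. In contrast to Ddx58 and Ifih1, K27M-APP T 3 and not K27M-APP T 2 was the highest of its group. An antisense gene, Dhx58os, overlaps Dhx58.

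Tmem173 (ENSMUSG00000024349, chr18:35733679-35740554, minus strand), the adaptor of the DNA-sensing route, was not set apart in tumour libraries. In EV ctl 4, WT-AP 1, K27M-AP 2 and K27M-AP 4 it stood at 2.33, 3.20, 2.53 and 0.607 CPM, and in the 11 other preneoplastic libraries at 10.3 to 31.3 CPM. The 4 low libraries all belonged to EV ctl, WT-AP and K27M-AP, each of which also held high ones, whereas all 5 libraries of the Pdgfra-overexpressing groups EV-PDGFRA and K27M-APP were among the higher 11, at 15.1 to 25.9 CPM. Tumour libraries held 36.8, 20.5 and 42.0 CPM in K27M-AP T 1, 2 and 4 and 16.2, 8.83, 18.0 and 29.02 CPM in K27M-APP T 1 to 4. K27M-APP T 2, the highest library for Ddx58 and Ifih1, was the lowest tumour library for Tmem173.

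K27M-AP T was compared with K27M-AP to ask how tumour cells differ from preneoplastic cells of one genotype. For the 9 members edgeR's quasi-likelihood test with Benjamini-Hochberg adjustment called 0, beside 0.0245% of the 20373 genes tested. At an unadjusted p under 0.05 the same test had 7 members higher and none lower, beside 7.16% of all genes higher. Libraries stood apart upward for 4 members (Stat2, Irf1, Ifih1 and Dhx58), beside 5.76% of all genes. DESeq2 called 6 higher (Irf9, Irf1, Irf7, Ddx58, Ifih1 and Dhx58), beside 2.13% of all genes. The median log2 fold change of the 9 members was 1.91, and over all genes it was -0.00119.

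The largest difference was that of Dhx58, with a log2 fold change of 3.19 (SE 0.56) and an edgeR adjusted p of 0.0731. Irf7 followed at 3.05 (SE 0.71, edgeR adjusted p 0.131) and Ifih1 at 2.77 (SE 0.62, edgeR adjusted p 0.124). Differences were 2.01 (SE 0.45) for Ddx58, 1.91 (SE 0.52) for Irf9, 1.21 (SE 0.29) for Irf1 and 0.95 (SE 0.28) for Stat2, with edgeR adjusted p from 0.124 to 0.214. Tmem173 differed by 1.39 (SE 0.87, edgeR adjusted p 0.545). Without K27M-AP T 1, edgeR called 4 members, Ddx58 (2.42), Dhx58 (3.58), Irf7 (3.57) and Irf9 (2.40 on the log2 scale). Without K27M-AP T 2 it called Dhx58 alone, at 3.43. Without K27M-AP T 4, the library with Trp53 mRNA at the level of EV ctl, edgeR called 0 and DESeq2 called 2 members in place of 6, Ifih1 (DESeq2 adjusted p 0.0396) and Dhx58 (0.00388), and log2 fold changes were 2.48 for Ifih1, 2.23 for Dhx58, 1.91 for Irf7, 1.79 for Ddx58, 1.43 for Irf9, 0.71 for Irf1 and 0.64 for Stat2. The share of all genes called in the same leave-out fits is not given here, so these calls are not set beside a general rate. The libraries came in an earlier and a later table. With only libraries of the earlier table the log2 fold change of Irf7 was 1.69, of Dhx58 2.00, of Ifih1 2.09, of Irf1 0.55 and of Stat2 0.50, and with those that first appear in the later table, where K27M-AP T 4 is the only K27M-AP T library, these were 4.39, 4.44, 3.77, 2.07 and 1.58. The direction of the 7 members was the same in both sets, and edgeR called none in either.

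**Figure D2:**
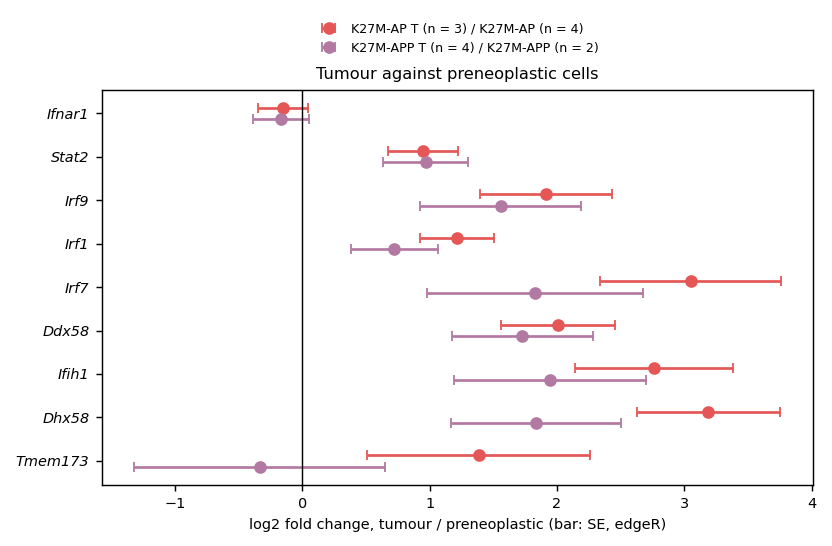
Log2 fold change of each member (points, with edgeR's standard error as bars) in K27M-AP T against K27M-AP and in K27M-APP T against K27M-APP. The 7 members lie to the right of 0 in both comparisons, from 0.72 to 3.19, while Ifnar1 lies at -0.15 and -0.17 and Tmem173 at 1.39 and -0.34.

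With Pdgfra overexpression in both stages, K27M-APP T against K27M-APP gave the same direction for the same 7 members. EdgeR called 0 members, beside 0% of all genes, and every adjusted p was 1. At an unadjusted p under 0.05 edgeR had 5 members higher (Stat2, Irf9, Ddx58, Ifih1 and Dhx58), beside 2.69% of all genes. Libraries stood apart upward for 7 members, beside 10.1%. DESeq2 called 0 members, beside 0.302% of genes called higher. Log2 fold changes were 1.95 (SE 0.75) for Ifih1, 1.83 (SE 0.67) for Dhx58, 1.83 (SE 0.85) for Irf7, 1.73 (SE 0.55) for Ddx58, 1.56 (SE 0.63) for Irf9, 0.97 (SE 0.33) for Stat2 and 0.72 (SE 0.34) for Irf1. Tmem173 stood at -0.34 (SE 0.98). K27M-APP T 2 held the highest level in its group for 6 of the 7, and without it the log2 fold changes were 1.20 for Ifih1, 1.78 for Dhx58, 1.27 for Irf7, 1.4 for Ddx58, 1.30 for Irf9, 0.76 for Stat2 and 0.63 for Irf1. The median over the 9 members was 1.56, beside 0.046 over all genes.

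K27M-APP T and K27M-AP T were compared directly to ask what Pdgfra adds in tumours. EdgeR called 0 members, beside 0% of all genes, and had none at an unadjusted p under 0.05. DESeq2 also called 0. Log2 fold changes ran from -0.93 (SE 0.68) for Irf7 to 0.03 (SE 0.60) for Ifih1, and the libraries of both groups overlapped for all 9 members. Without K27M-AP T 4 both tools again called 0, but the values ran from -0.67 (SE 1.02) for Tmem173 to 0.50 (SE 0.48) for Dhx58, and those of Stat2, Irf9, Irf1, Irf7, Ddx58 and Dhx58 turned from below to above 0, with Irf7 at 0.20 (SE 0.65). The interaction, which asks whether the tumour difference depends on Pdgfra, called 0 members by edgeR, beside 0% of all genes, 0 at an unadjusted p under 0.05 and 0 by DESeq2. Its log2 values ran from -1.72 (SE 1.30) for Tmem173 to 0.02 (SE 0.42) for Stat2, and that of Dhx58 was -1.36 (SE 0.81). Without K27M-AP T 4 both tools called 0, and the values ran from -1.53 (SE 1.43) for Tmem173 to 0.32 (SE 0.40) for Stat2, with Dhx58 at -0.41 (SE 0.66). With these errors a dependence on Pdgfra of that size was not detectable.

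The tumour libraries also differed among themselves. Over the 7 members, K27M-AP T 1 had a median ratio of 1.46 to the preneoplastic median and was the lowest of the 7 K27M-AP T and K27M-APP T libraries for 5 of them, yet its Ifih1 was 5.16-fold the preneoplastic median. The highest library was K27M-AP T 4 for 5 members, with a median ratio of 7.33 and a ratio of 25.2 for Irf7. For Ifih1 and Ddx58 the highest was K27M-APP T 2, with a median ratio of 5.80 over the 7 members and a ratio of 26.1 for Ifih1. K27M-APP T 1, 3 and 4 lay close together, with median ratios of 3.22, 3.51 and 3.03, and K27M-AP T 2 stood at 5.61. The single K27M-P T library, without the Atrx shRNA, had a median ratio of 2.295, with Irf9 at 30.2 CPM, Irf7 at 5.13 CPM and Ddx58 at 40.3 CPM above all preneoplastic libraries. Its Stat2 (17.7 CPM), Irf1 (9.53 CPM), Ifih1 (12.1 CPM) and Dhx58 (1.00 CPM) lay within their range. With 1 library, K27M-P T has no replicate check.

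**Figure D3:**
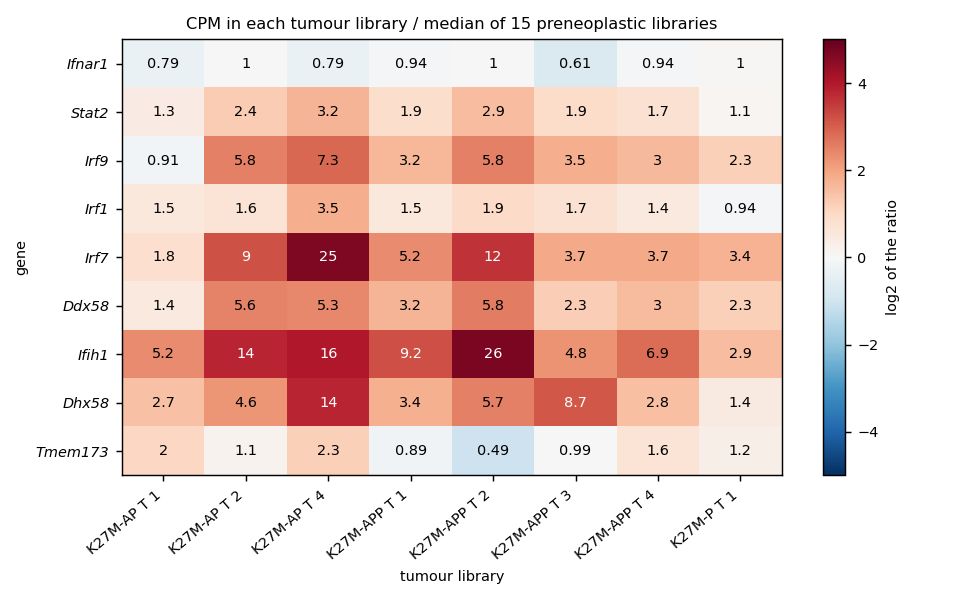
Ratio of the CPM in each of the 8 tumour libraries to the median of the 15 preneoplastic libraries, for each member, with the ratio printed in each cell and coloured on a log2 scale. K27M-AP T 1 is pale for most members except Ifih1 (5.16), and K27M-AP T 4 and K27M-APP T 2 hold the highest ratios. The 15 libraries include genotypes other than those of the tumours, so the ratios mix genotype with stage.

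Over all 23 libraries the log2 CPM of the 7 members correlated with one another, with Pearson's r of 0.728 to 0.960 over 21 pairs and a median of 0.844. Ifnar1 had r of -0.514 to -0.260 with them, and Tmem173 0.037 to 0.441. The points share their library and its depth, and the values are a description. The 7 members were grouped because they stood higher in most tumour libraries, and the 23 libraries span both stages. High r among them, and lower r for Ifnar1 and Tmem173, thus follow in part from that choice. Whether the 7 members vary together beyond the difference between stages was not tested. Among the 7 K27M-AP T and K27M-APP T libraries alone, Stat2 and Irf7 had r of 0.981, Ddx58 and Irf9 0.935, and Dhx58 and Ifih1 0.351. By Pearson's r over the 23 libraries, genes most like Ddx58 included Irgm2 (0.971), and those most like Irf9 included Usp18 (0.953). Most like Irf7 were Ifi27l2a (0.956) and Parp12 (0.954), and most like Ifih1 were Rsad2 (0.961) and Parp12 (0.955). For Stat2 they were Ifi27l2a (0.919) and Isg15 (0.908), for Irf1 Psmb8 (0.914) and Sqrdl (0.913), and for Dhx58 Galntl6 (0.918) and Apol9b (0.893). The nearest genes to Tmem173 were Spry1 (0.966), a feedback inhibitor of receptor tyrosine kinase signalling, and Ccnd1 (0.937), which encodes cyclin D1. Those nearest to Ifnar1 were Slc5a2 (0.863) and Cox15 (0.859).

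Among preneoplastic groups no member passed the test. In WT-AP against EV ctl edgeR called 0 members, beside 0.312% of the 20197 genes tested, and log2 fold changes ran from -0.02 to 1.61. In EV-PDGFRA against EV ctl it called 0, beside 0%, with log2 fold changes from -0.0042 to 1.68, and this comparison shares its control libraries with the previous one. Tmem173 had the highest value in both, with an SE of 1.20 in the first and 1.24 in the second. K27M-AP against WT-AP, which asks what the mutant histone adds to the wild-type one, gave 0 called, beside 0.0297%, and log2 fold changes from -0.61 for Tmem173 to 0.56 for Irf7. K27M-APP against K27M-AP gave 0 called, beside 0%, with 0.91 (SE 0.45) for Dhx58 and 0.86 (SE 0.49) for Ifih1. In these 4 comparisons no member had an unadjusted p under 0.05, and DESeq2 called 0.

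K27M-APP against EV-PDGFRA, where both groups overexpress Pdgfra and differ by H3.3K27M, Trp53 loss and the Atrx shRNA, gave 0 called by edgeR, beside 1.94% of all genes. Ifih1 was the 1 member with an unadjusted p under 0.05, beside 3133 of the 20197 genes tested, in either direction. As a count, 1 of 9 members is no more than the rate over all genes. The log2 fold change of Ifih1 was 2.10 (SE 0.53), with 12.9 and 12.4 CPM against 4.05, 3.41 and 1.41 CPM and an edgeR adjusted p of 0.0638. DESeq2 called Ifih1 alone of the members, with an adjusted p of 0.00374, beside 1371 genes called in either direction. Within the earlier table, which holds both K27M-APP libraries and EV-PDGFRA 1 and 2, the log2 fold change of Ifih1 was 1.76 and edgeR's adjusted p was 0.0507. Libraries also stood apart upward for Dhx58, at 0.67 (SE 0.48). How many of all genes stood apart in this comparison was not counted. The other 7 members ran from -0.38 for Irf1 to 0.83 for Irf7.

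Interferon genes themselves were near the limit of detection. Of 21 listed interferon ligand genes 19 were in the table, their summed level was at most 0.187 CPM in preneoplastic and 0.276 CPM in tumour libraries, and none had enough counts to be tested. For the 8 other receptor chains and kinases, edgeR called 0 in either tumour comparison, as did DESeq2, and the median log2 fold change was 0.08 in K27M-AP T against K27M-AP and -0.18 in K27M-APP T against K27M-APP. Jak2, the kinase of this list with the highest mean, had log2 fold changes of -0.99 (SE 0.41) and -0.64 (SE 0.44). Of the 8 other STAT and IRF genes edgeR called 0 in both, with medians of -0.15 and 0.10, and Stat3, the highest of them, had log2 fold changes of -0.20 and 0.16.

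Of 18 other sensors and adaptors tested, edgeR called 0 in both tumour comparisons, and log2 fold changes were above 0 for 16 with a median of 0.60 in K27M-AP T against K27M-AP and for 12 with a median of 0.44 in K27M-APP T against K27M-APP. DESeq2 called 3 higher in the first, Aim2, Eif2ak2 and Trim25, which are named here after their values were seen, and none in the second. Zc3hav1, an antiviral zinc finger protein and the highest of the list, had log2 fold changes of 0.93 (SE 0.34) and 0.63 (SE 0.40). Rnf135, a ubiquitin ligase that activates RIG-I, fell by 1.77 on the log2 scale in K27M-APP against EV-PDGFRA (edgeR adjusted p 0.0437, DESeq2 adjusted p 0.000634). That call was lost when any 1 of the 5 libraries was left out, with edgeR adjusted p from 0.0604 to 0.359. Of 8 negative regulators edgeR called 0 in both tumour comparisons, and Irf2bp2, the highest, had log2 fold changes of 0.33 and 0.10. Usp18, which blocks signalling at the receptor and was named for its likeness to Irf9, had log2 fold changes of 3.59 (SE 0.79, edgeR adjusted p 0.117) and 2.60 (SE 0.97, edgeR adjusted p 1). DESeq2 called it higher in K27M-AP T against K27M-AP (adjusted p 0.000203, and 0.0171 without K27M-AP T 4), as the 1 called of the 8, and not in K27M-APP T against K27M-APP (adjusted p 0.228).

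The products of this pathway, 29 interferon-induced effector genes such as Isg15 and the Ifit and Oas families, had summed levels of 91.3 to 200.6 CPM with a median of 132 in preneoplastic libraries and of 343 to 1497 CPM with a median of 788 in tumour libraries. Every tumour library lay above every preneoplastic one. In K27M-AP T against K27M-AP, 1 of 28 tested rose by edgeR's quasi-likelihood test, Ifi27, with a log2 fold change of 3.64 (SE 0.47, adjusted p 0.0443), and 19 were called higher by DESeq2, with a median log2 fold change of 2.80. Without K27M-AP T 4 the adjusted p of Ifi27 was 0.0759 by edgeR, DESeq2 called 11 of 27 effector genes higher, and without K27M-AP 1, 2, 3 or 4 it was 0.17, 0.107, 0.152 and 0.105, at log2 fold changes of 3.42 to 3.82. In K27M-APP T against K27M-APP edgeR called 0, DESeq2 called 7 higher, and the median was 2.41. These lists were written with earlier results of these data known, so their counts are no independent evidence of a direction.

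**Figure D4:**
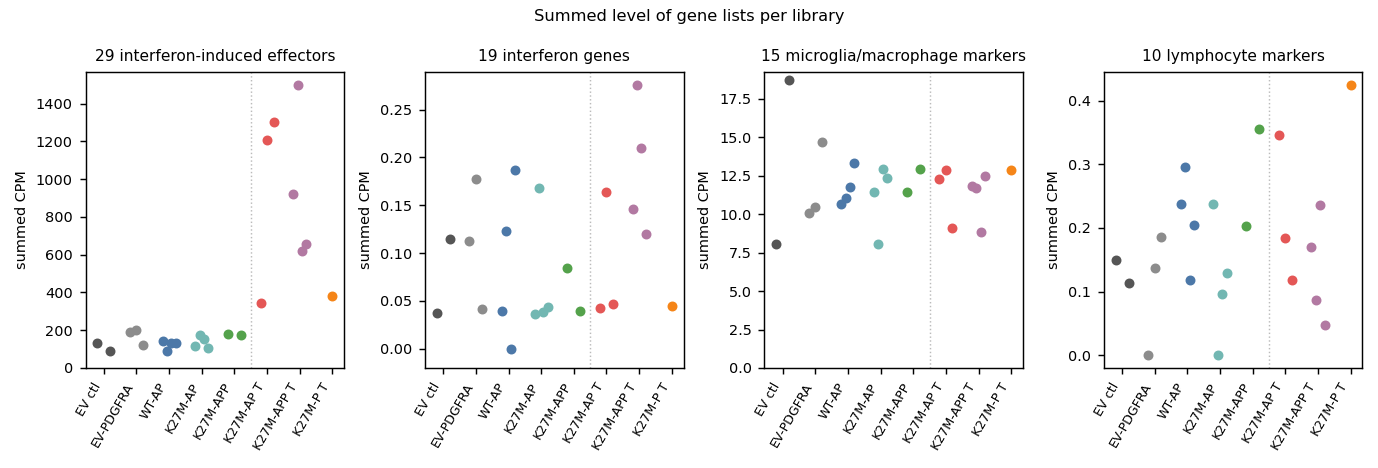
Summed CPM of 4 gene lists in each library (points) by group, on linear axes that differ between panels. The effector genes sum to 343 CPM or more in every tumour library and to at most 200.6 CPM in preneoplastic ones, whereas the interferon genes stay at or below 0.276 CPM, and the microglia and macrophage and lymphocyte markers overlap between stages. Fibroblast markers and endothelial and pericyte markers are not plotted. Their median sums were higher in tumour libraries, at 9.06 against 3.37 CPM and 2.64 against 1.41 CPM.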

How the data were processed

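Libraries were made after removal of ribosomal RNA and read as pairs, per the labels' protocols. The authors deposited raw counts per gene in an earlier and a later table. Tools in the submitters' processing notes are STAR 2.3.0e, featureCounts 1.4.4, Trimmomatic 0.32, Picard, GATK and SAMtools 0.1.19, with the build mm10 and no roles. K27M-P T came from the earlier table and the 22 other libraries from the later one. Values of the 12 libraries in both were identical, and 8 columns of the earlier table were not used.

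The deposited counts were scaled by TMM, filtered (filterByExpr, minimum count 10, minimum total 15) and tested with edgeR 4.0.16 in R 4.3.3 (quasi-likelihood F-test, Benjamini-Hochberg adjustment over all genes, called under 0.05). One fit held 15 preneoplastic libraries and the other the 13 of both tumour groups and their preneoplastic counterparts. All 9 members passed both filters. Alternatives were DESeq2 1.42.0, its size factors, no filter, other sets of libraries, a table term, a replicate block and leaving out each library. Scripts were tested on simulated data. Correlations used log2 CPM with a prior count of 2. Coordinates are from GENCODE M21, and promoters from RefSeq. The members and lists were chosen with earlier results of these data known. Named genes are the members, up to 2 genes called in each direction per list or else its highest-mean gene, and the 2 genes most like each member. A result that this rule names is not reported here.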

Additional observations from a re-analysis of the deposited data

Results flagged for a closer look

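Stat2 in K27M-APP T 2, at 48.2 CPM, lay far from the 3 other libraries of its group (28.1 to 30.7 CPM). It was the 1 such value among 27 sets of 4 libraries examined. Chance alone flags about 1 set in 20, so 1 flag among 27 sets is no more than chance gives. The sets are the 9 members in the same 3 groups and are not independent.

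The K27M-P T library enters no comparison between groups. Its levels of Irf9 (30.2 CPM), Irf7 (5.13 CPM) and Ddx58 (40.3 CPM) were above those of all 15 preneoplastic libraries, whose highest values were 21.9, 3.40 and 26.98 CPM.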

How the results depend on the processing

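In K27M-AP T against K27M-AP, where edgeR called 0 members, DESeq2 called 6 and a fit of all 23 libraries called 5 (Ddx58, Dhx58, Ifih1, Irf1 and Irf7). Leaving out each library in turn gave 0 to 4, the highest without K27M-AP T 1. DESeq2 without K27M-AP T 4, chosen after seeing the data, called 2. In K27M-APP against EV-PDGFRA, where edgeR called 0, DESeq2, a fit of only the compared groups and a fit with a table term each called 1, which was Ifih1 (edgeR adjusted p 0.0267 and 0.0443 in the latter 2). Counts or shares over all genes are given above for the main edgeR and DESeq2 fits, and not for these other fits. The edgeR calls of Ifi27 in the first and Rnf135 in the second comparison were each lost in the fit to a single table (adjusted p 0.219 and 0.48 for Ifi27, 0.112 for Rnf135), that of Ifi27 also with only the compared groups (0.145), and that of Rnf135 with all 23 libraries (0.318), no filter (0.0588) and the table term (0.0555). The causes were not tested. In the 7 other comparisons, the interaction included, every alternative that was run called 0, and no fold change of a member in K27M-AP T against K27M-AP or K27M-APP T against K27M-APP changed sign. Irf7 in K27M-APP T against K27M-AP T, at -0.93, changed sign within the earlier table (0.69) and was -1.49 to 0.20 on leaving out each library, above 0 without K27M-AP T 4. Over all 16 alternatives its log2 fold change ran from -2.75 to 0.69. With a replicate block, 0 members were called in each comparison that could be fitted, with an adjusted p of 0.0817 for Dhx58 in K27M-AP T against K27M-AP, and that of Rnf135 was 0.0738. No paired analysis was possible for WT-AP and EV-PDGFRA against EV ctl because they share fewer than 2 numbers. Libraries of the same number in K27M-AP T and K27M-AP had deviations from their group means that correlated at 0.262, 0.0841 and 0.00675. In K27M-AP and WT-AP these correlations were -0.1975, 0.460 and 0.579 for numbers 1, 2 and 3. In K27M-APP T and K27M-AP T they were 0.256, 0.379 and -0.0155 for numbers 1, 2 and 4. In the other comparisons they ran from -0.1325 to 0.194. Whether equal numbers share a source cannot be told from these values. Fits to 1 table's libraries were not run where it lacks a compared group. Where a group is left with 1 library, it is assumed to vary like the others. Groups of 2 to 4 libraries limit precision, and Dhx58, at 15 to 68 counts in preneoplastic libraries, is the member with the fewest.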
